A study of Mus musculus with 72 samples.

Results

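Timp1, Timp2 and Timp3 encode tissue inhibitors of metalloproteinases, and they are described here across 4 treatment groups of mouse 4T1 tumours. They were taken as the rows carrying these 3 gene symbols, and they are 3 of the 1224 different genes read on 2 targeted amplicon panels. All 3 passed the filter on low counts, as did 1038 genes in all. 4T1, the line all tumours grew from, is a metastatic mammary cancer line derived from a BALB/c mouse.

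The tumours came from 36 female BALB/c mice aged 6 to 12 weeks, 9 in each group. Day -6 was the day of injection into the muscle of the thigh, day 0 that of treatment and day 6 that of euthanasia. The control mice received an isotype antibody (400 µg). The BA mice received bintrafusp alfa (492 µg), called M7824 in the labels, an anti-PD-L1 antibody joined to the part of a TGF-β receptor that traps the ligand. The RT mice received radiation with the isotype antibody, and the BA+RT mice received radiation with bintrafusp alfa. No radiation dose was stated in the labels, which also call the tumours orthotopic despite the injection site.

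TIMP proteins are secreted and block the active site of matrix metalloproteinases, the zinc enzymes that cut collagen and other matrix proteins. TIMP-1 is a soluble, cytokine-inducible inhibitor that also binds the precursor of MMP-9, TIMP-2 is made more constantly and takes part with the membrane enzyme MMP-14 in the activation of pro-MMP-2, and TIMP-3 is held in the matrix and also inhibits ADAM17 and aggrecanases. Timp1 and Timp3 are known to be induced by TGF-β in cultured cells. In tumours the TIMPs are made by tumour cells as well as by fibroblasts, vessels and leukocytes. The samples here are RNA of whole tumours, so fewer cells of a type and less RNA per cell cannot be told apart.

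All 3 transcripts were read on panel 2 only, each through 1 amplicon of 95 bases, and positions are on GRCm38. The Timp1 amplicon (ENSMUSG00000001131) lay at chrX:20873376-20873470 on the plus strand, in coding exon 5 of 6. The Timp2 amplicon (ENSMUSG00000017466) lay at chr11:118302484-118302578 on the minus strand, in the 3' untranslated part of exon 5 of 5, and the Timp3 amplicon (ENSMUSG00000020044) lay at chr10:86348549-86348643 on the plus strand, also in the 3' untranslated part of exon 5 of 5. Timp1 lies inside Syn1 and Timp3 inside Syn3, both synapsin genes on the opposite strand. The labels do not say whether strand was used in counting, and without it reads of the synapsin genes at these positions could not be told apart from the TIMP reads. The amplicon that stands for Timp1 is shown because the largest fold change of the 3 inhibitors was counted on it. Its sequence was read from the GENCODE transcript.
Timp1 amplicon: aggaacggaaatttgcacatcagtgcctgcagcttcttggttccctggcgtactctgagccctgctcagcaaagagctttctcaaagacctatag

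The promoters of Timp1 and Timp3 are shown because these genes moved in the same direction in the comparisons below. They are the 250 bases before the start site, from RefSeq (GRCm38.p6), at chrX:20869916-20870165 for Timp1 and chr10:86300162-86300411 for Timp3, both on the plus strand. Capitals mark the letters of a GC box (GGGCGG) or of the core that ETS factors bind (GGAAG), on either strand.
Timp1 promoter: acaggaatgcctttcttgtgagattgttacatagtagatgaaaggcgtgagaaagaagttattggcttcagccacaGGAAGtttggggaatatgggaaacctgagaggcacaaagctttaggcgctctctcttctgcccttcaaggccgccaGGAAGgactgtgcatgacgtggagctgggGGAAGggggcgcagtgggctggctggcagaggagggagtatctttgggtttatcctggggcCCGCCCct
Timp3 promoter: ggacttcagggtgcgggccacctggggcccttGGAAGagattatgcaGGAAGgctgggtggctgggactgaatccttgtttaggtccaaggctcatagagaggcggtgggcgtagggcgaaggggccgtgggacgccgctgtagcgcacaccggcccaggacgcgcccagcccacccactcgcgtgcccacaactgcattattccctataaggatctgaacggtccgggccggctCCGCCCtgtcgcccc

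Each of the 3 promoters, that of Timp2 included, held 1 GC box. Its first base was 8 bases before the RefSeq start site in Timp1, 37 in Timp2 and 15 in Timp3. In GENCODE, used for the amplicons, the Timp3 gene starts at chr10:86300372, so its GC box lies inside the gene there. A GC box was present in 32.7% of 32841 mouse promoters of this length. The ETS core occurred 3 times in the Timp1 window, once in Timp2 and 2 times in Timp3, and 64.1% of all promoters held it. The letters searched for AP-1 (TGANTCA), SMAD factors (CAGAC), STAT factors (TTCNNNGAA) and the 10-base NF-kB motif were not in any of the 3 windows, and they were in 6.75%, 42.2%, 7.02% and 17.6% of all promoters. A match is a description of letters and not a binding site. GC content was 54.4% in the Timp1 window and 65.6% in that of Timp3.

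Panel 2 libraries held from 314621 to 841046 counts. Median depth was 365797 in the BA group, 538121 in control, 626610 in RT and 675225 in BA+RT, so BA libraries were the shallowest. Levels are given as CPM (TMM-scaled counts relative to the library total of the genes tested on panel 2), and a level is therefore relative to the other genes on the panel. Comparisons were tested with edgeR's quasi-likelihood F test, two-sided, and p-values were adjusted over the 1038 genes of both panels. Control mouse 6 and BA+RT mouse 45 stood apart from their groups, with Myod1, the transcription factor of muscle precursors, at 169.9 and 393.4 CPM against group medians of 27.87 and 91.08. Results are given without them where the call or the direction changed. With scaling to the 9 reference genes of each panel, the median gene stood at a log2 fold change of 0.19 in RT vs control, 0.14 in BA+RT vs control, 0.20 in BA+RT vs BA and -0.25 in BA vs RT, and near 0 with TMM. With it, the split of genes called higher and lower moved from 213 and 219 to 422 and 79 in RT vs control, and from 130 and 150 to 99 and 183 in BA vs control.

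Timp1 was lowest in the BA tumours and highest in the RT tumours, and the control and BA+RT groups lay between them at similar levels. In control tumours Timp1 ranged from 5425 to 10987 CPM with a median of 7202 (mean 7559 ± 1902, SD, n = 9). In BA tumours it ranged from 3419 to 4880 CPM with a median of 3902 (mean 3980 ± 513, SD, n = 9). Every BA tumour was below every control tumour, and the BA group was also the least variable of the 4. In RT tumours Timp1 ranged from 8546 to 14008 CPM with a median of 10988 (mean 11421 ± 1665, SD, n = 9). In BA+RT tumours it ranged from 5059 to 12976 CPM with a median of 7612 (mean 7609 ± 2452, SD, n = 9). The RT tumours were above all BA tumours, 5 of 9 RT tumours were above all controls, and BA+RT tumours spread from just below the lowest control to mouse 45, above all controls. These levels rested on 1125 to 8521 Timp1 counts per library.

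**Figure D1:**
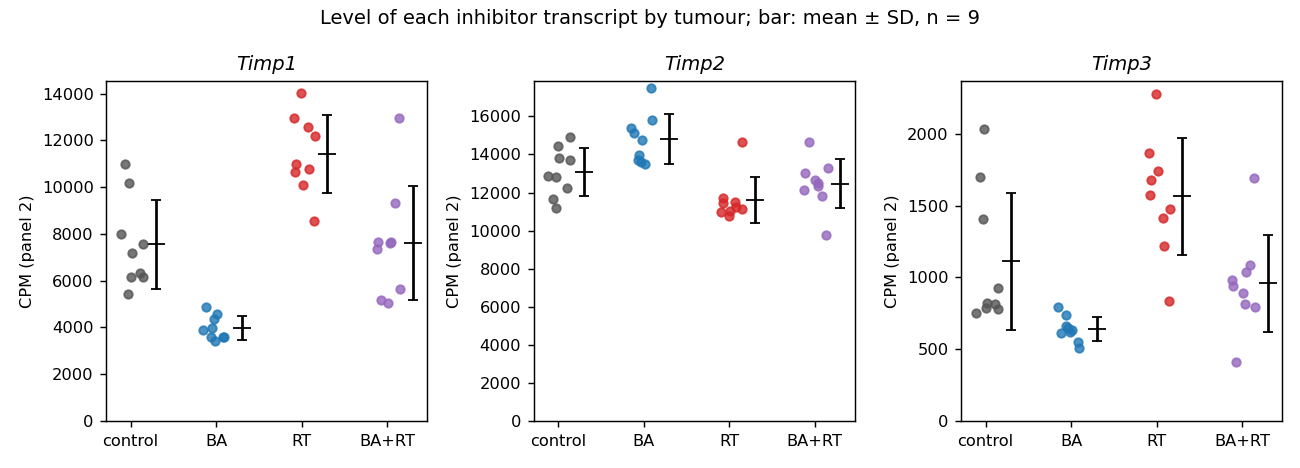
Level of Timp1, Timp2 and Timp3 in each tumour, in CPM on panel 2 (vertical axes from 0), for the 4 groups on the horizontal axis. Each point is 1 mouse and the bars give the mean ± SD of 9 mice. Timp1 in BA tumours lies between 3419 and 4880, below all tumours of the other groups, and the highest Timp3 values are control mouse 6 at 2029 and RT mouse 23 at 2274.

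With BA alone Timp1 fell 1.90-fold against control (log2 fold change -0.92, SE 0.14, adjusted p = 1.16e-05). All 3 inhibitors passed the test in this comparison, in which 27% of the genes tested did, and only 2.79% of genes had groups that did not overlap, as Timp1 did. With radiation alone Timp1 rose 1.51-fold (log2 0.60, SE 0.14, adjusted p = 0.00101). All 3 inhibitors were again called, as were 41.6% of genes, and none of the 3 had groups free of overlap, which 7.61% of genes had. When BA was added to radiation, Timp1 fell 1.5-fold against RT (log2 -0.59, SE 0.14, adjusted p = 0.00645), and 7 of 9 BA+RT tumours were below all RT tumours. Timp1 and Timp3 were the 2 inhibitors called in BA+RT vs RT, where 10.8% of genes were called and 0.771% had groups that did not overlap. When radiation was added to BA, Timp1 rose 1.91-fold against BA (log2 0.93, SE 0.14, adjusted p = 2.06e-06), and the groups did not overlap, as was so for 11.7% of genes. All 3 inhibitors were called there, beside 53.5% of all genes. Without mouse 45 the last 2 differences were -0.72 and 0.80 on the log2 scale, with both calls kept.

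The widest gap for Timp1 was between the treatments given alone. Timp1 was 2.87-fold lower in BA than in RT tumours (log2 -1.52, SE 0.15, adjusted p = 1.64e-10), and no tumours overlapped, as in 16.6% of genes. All 3 inhibitors were called in BA vs RT, where 53.8% of genes were. Control and BA+RT tumours, the neighbours in the order of levels, did not differ beyond their spread (log2 0.01, 95% interval -0.28 to 0.30, adjusted p = 0.961). None of the 3 inhibitors was called in BA+RT vs control by edgeR, where 47.6% of genes were called and 7.23% had groups that did not overlap. Their unadjusted p-values were 0.944 for Timp1, 0.321 for Timp2 and 0.313 for Timp3. DESeq2 and limma on the deposited rlog values called none of them either. The comparisons share groups, so their values are set side by side and not counted as separate evidence.

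Timp3, like Timp1, was highest in RT and lowest in BA tumours, and control and BA+RT lay between them, with the higher median in BA+RT but the higher mean in control. In control tumours Timp3 ranged from 750 to 2029 CPM with a median of 822 (mean 1112 ± 478, SD, n = 9). In BA tumours it ranged from 509 to 790 CPM with a median of 635 (mean 640 ± 86.6, SD, n = 9). Control mice 5, 6 and 8 stood at 1699, 2029 and 1408 CPM, well above the other 6 controls, and 8 of 9 BA tumours were below all controls. In RT tumours Timp3 ranged from 836 to 2274 CPM with a median of 1576 (mean 1564 ± 406, SD, n = 9). In BA+RT tumours it ranged from 409 to 1691 CPM with a median of 941 (mean 960 ± 338, SD, n = 9). RT mouse 25 was the lowest of its group, BA+RT mouse 45 the highest and BA+RT mouse 37 the lowest of all 36 mice. Timp3 rested on 173 to 1466 counts per library.

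Timp3 fell 1.73-fold with BA against control (log2 -0.79, SE 0.21, adjusted p = 0.00444). It also fell 1.63-fold when BA was added to radiation (log2 -0.70, SE 0.20, adjusted p = 0.0195). Both falls remained called without control mouse 6 and BA+RT mouse 45, at -0.64 and -0.86 on the log2 scale. Radiation added to BA raised Timp3 by 1.5-fold (log2 0.58, SE 0.21, adjusted p = 0.018), and 7 of 9 BA+RT tumours were above all BA tumours. That call was lost without BA+RT mouse 45 (log2 0.44, adjusted p = 0.0601 by edgeR). In BA tumours Timp3 was 2.44-fold lower than in RT tumours (log2 -1.28, SE 0.21, adjusted p = 3.26e-06). These 2 groups did not overlap, as in 16.6% of genes.

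The rise of Timp3 with radiation alone was close to the threshold. Against control it was 1.41-fold (log2 0.50, SE 0.20, adjusted p = 0.0447), and the RT and control tumours overlapped widely, with RT mouse 23 alone above all controls. The call was lost in a fit of these groups only (log2 0.49, adjusted p = 0.0725 by edgeR). It was also lost when any of 14 of the 36 mice was left out, namely control mice 1, 2, 3, 4, 7 and 9, BA mice 11, 12 and 14, and RT mice 19, 20, 22, 23 and 27. The value then lay between 0.41 and 0.50 on the log2 scale. Without control mouse 6 it was 0.65 (adjusted p = 0.00542). BA+RT and control tumours did not differ in Timp3 beyond their spread (log2 -0.21, 95% interval -0.62 to 0.20, adjusted p = 0.411).

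**Figure D2:**
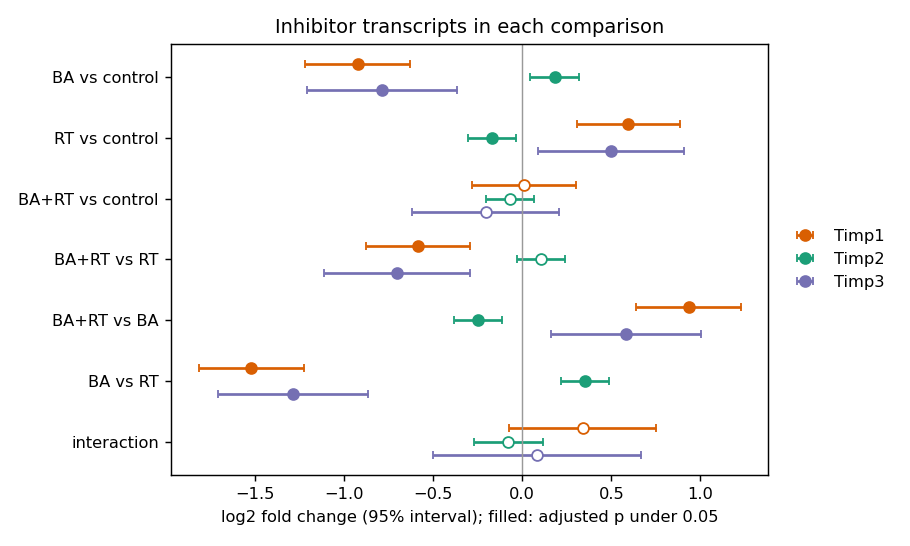
Log2 fold changes of Timp1, Timp2 and Timp3 (horizontal axis) in the 6 pairwise comparisons and the interaction (vertical axis), from edgeR with n = 9 mice a group; bars are 95% intervals and filled points have an adjusted p under 0.05. Timp1 and Timp3 lie on the same side of 0 wherever both are filled, from -1.52 to 0.93 for Timp1, while the filled Timp2 points lie on the other side under TMM scaling and all lose the call under reference-gene scaling.

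Timp2 varied least between tumours and moved by small amounts. In control tumours it ranged from 11163 to 14907 CPM with a median of 12844 (mean 13064 ± 1260, SD, n = 9). In BA tumours it ranged from 13493 to 17475 CPM with a median of 14768 (mean 14813 ± 1310, SD, n = 9). The BA group sat above the control group as a whole, with 4 of 9 BA tumours above all controls and the others inside the control range. In RT tumours Timp2 ranged from 10761 to 14682 CPM with a median of 11249 (mean 11607 ± 1190, SD, n = 9). In BA+RT tumours it ranged from 9788 to 14664 CPM with a median of 12490 (mean 12472 ± 1300, SD, n = 9). Among the RT tumours 8 of 9 lay close together and mouse 25 was far above them, while BA+RT mouse 45 was the lowest of all 36 tumours. The coefficient of variation was 8.84% to 10.4% for Timp2 in the 4 groups, 12.9% to 32.2% for Timp1 and 13.5% to 43% for Timp3.

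Under TMM scaling Timp2 rose 1.13-fold with BA against control (log2 0.18, SE 0.07, adjusted p = 0.04), but under reference-gene scaling the value was 0.08 and not called (adjusted p = 0.333). Under TMM it fell 1.13-fold with radiation (log2 -0.17, adjusted p = 0.0381), but with the reference genes the value was -0.01 (adjusted p = 0.921 by edgeR). Relative to the median of all genes under reference-gene scaling, which was 0.19, the Timp2 value lay lower. Timp2 fell 1.19-fold in BA+RT against BA (log2 -0.25, adjusted p = 0.00211) and was 1.28-fold higher in BA than in RT (log2 0.35, adjusted p = 3.49e-05), and with the reference genes these became -0.10 (adjusted p = 0.13) and 0.08 (adjusted p = 0.186). BA+RT against RT gave a Timp2 log2 value of 0.10 (95% interval -0.03 to 0.24, adjusted p = 0.362), and its sign turned to -0.01 with the reference genes. The rise with BA lost its call when any of 12 mice was left out (control mice 3, 5, 6 and 7, BA mice 10, 11, 14, 16 and 17, and RT mice 23, 26 and 27), with values of 0.15 to 0.18. The fall with radiation lost its call without any of 10 mice (control mice 1 and 2, and every RT mouse but 25), with values of -0.17 to -0.14, and was -0.23 without RT mouse 25.

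Whether BA acted differently in irradiated tumours was tested by the interaction, the log2 change BA made in irradiated tumours minus that in unirradiated tumours. The interaction was 0.34 for Timp1 (95% interval -0.07 to 0.75, adjusted p = 0.327), -0.08 for Timp2 (95% interval -0.27 to 0.11, adjusted p = 0.666) and 0.08 for Timp3 (95% interval -0.50 to 0.67, adjusted p = 0.896). None of the 3 was called, where 8.29% of all genes were, and the unadjusted p-values were 0.102, 0.415 and 0.773. DESeq2 and limma on the deposited rlog values did not call them either. The intervals reach differences of 0.75 for Timp1 and 0.67 for Timp3, so the p-values do not show that BA acted alike with and without radiation.

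Ratios of counts inside a library do not depend on how libraries are scaled, so the inhibitors were also compared with each other in that way. In all, 24 ratios were compared in 6 pairs of groups, each by a two-sided exact permutation test over 48620 arrangements, and 75 of the 144 tests passed after adjustment. The log2 ratio of Timp1 to Timp2 counts ranged from -1.24 to -0.09 in control (median -0.96) and from -2.29 to -1.56 in BA tumours (median -1.94). In RT tumours it ranged from -0.78 to 0.38 (median -0.06) and in BA+RT from -1.50 to 0.41 (median -0.72). The BA tumours were below all control, RT and BA+RT tumours in this ratio. The mean was lower by 1.08 in BA than in control (exact permutation p = 4.11e-05, the smallest these arrangements can give, adjusted p = 0.000219). The ratio was higher in RT than in control by 0.79 (adjusted exact permutation p = 0.00354), in 9 of 9 RT tumours relative to the control mean. Between BA+RT and control the ratio differed by 0.06 (adjusted exact permutation p = 0.837).

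The ratio of Timp2 to Timp3 showed the other side of the same split. It ranged from 2.46 to 4.21 in control (median 4.01) and from 4.23 to 4.99 in BA tumours (median 4.41), without overlap. In RT tumours it ranged from 2.24 to 4.13 (median 2.89), and in BA+RT from 2.53 to 5.16 (median 3.79). Timp2 thus gained on Timp3 by 0.89 with BA against control (adjusted exact permutation p = 0.000219), while the shift of -0.72 with radiation missed the threshold (adjusted exact permutation p = 0.051). The latter passed when control mouse 5, 6 or 8 or RT mouse 25 was left out, at -0.77 to -0.87. With a mouse left out, ratio p-values were adjusted only over the comparisons holding its group, so these calls also differ in adjustment. The ratio of Timp1 to Timp3 moved least. Its group medians were 2.98 in control, 2.70 in BA, 2.79 in RT and 2.94 in BA+RT, and of the 6 comparisons BA+RT vs BA alone was called (difference 0.37, adjusted exact permutation p = 0.0216). BA vs RT differed by -0.27 (adjusted exact permutation p = 0.0761) and passed at -0.31 when BA mouse 17 or RT mouse 27 was left out.

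**Figure D3:**
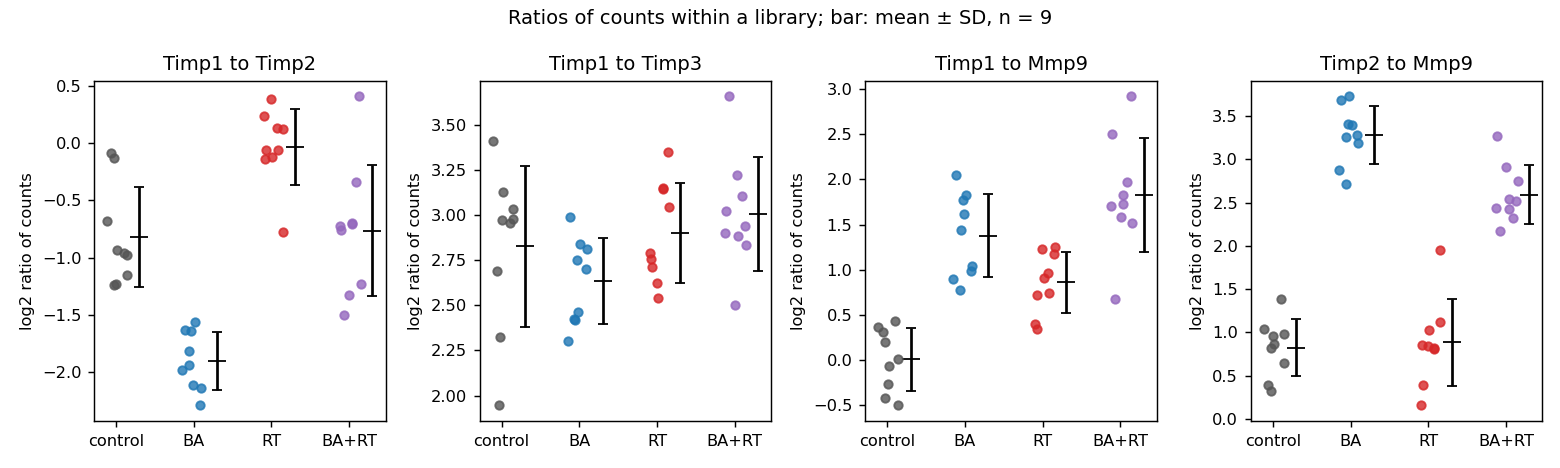
Log2 ratios of counts within a panel 2 library (vertical axes) for Timp1 to Timp2, Timp1 to Timp3, Timp1 to Mmp9 and Timp2 to Mmp9 in the 4 groups (horizontal axes). Each point is 1 mouse and the bars give mean ± SD of 9 mice. In the Timp1 to Timp2 plot the BA tumours lie between -2.29 and -1.56, below every tumour of the other groups, and in the Timp2 to Mmp9 plot all BA and BA+RT tumours lie at 2.17 or above while control and RT tumours lie at 1.96 or below.

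The enzymes that TIMPs inhibit were followed on the same samples. Of 16 matrix metalloproteinases listed 8 were on the panels, and none of the 12 ADAM and ADAMTS enzymes listed was. With BA alone 4 of the 8 metalloproteinases fell and none rose, where 27% of all genes were called, and the counts were the same under RLE, total-count and reference-gene scaling. The genes were the gelatinase Mmp9 (log2 -2.26), the collagenase Mmp13 (log2 -1.14), the stromelysin Mmp3 (log2 -0.56) and the membrane enzyme Mmp14 (log2 -0.22). Their median log2 change over the 8 genes was -0.48, against 0.002 over all genes. With radiation alone Mmp2, the other gelatinase, rose (log2 0.53), and Mmp1a (log2 -1.65), Mmp3 (log2 -0.39) and Mmp14 (log2 -0.20) fell, while with reference-gene scaling Mmp12 and Mmp2 rose and Mmp1a fell. In BA+RT against control 6 of 8 fell and none rose under each of the 4 scalings, where 47.6% of all genes were called under TMM, Mmp9 (log2 -1.82) and Mmp1a (log2 -1.87) among them, and none of the 3 inhibitors was called there. Mmp9 and Timp1 both fell when BA was added to radiation (log2 -1.61 and -0.59), with Mmp12 (log2 -1.23), a macrophage elastase, and Mmp13 (log2 -0.92).

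**Figure D4:**
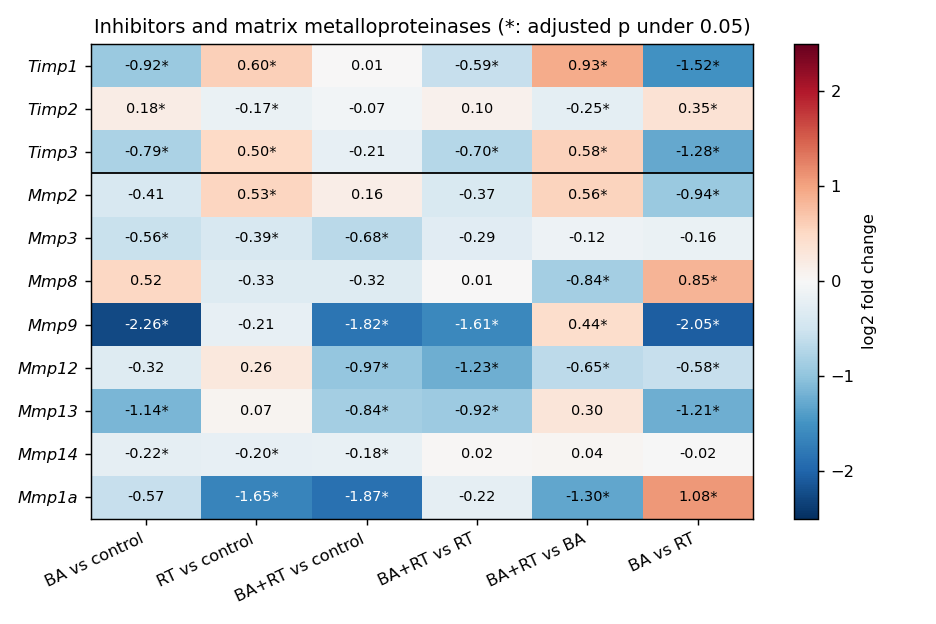
Log2 fold changes (colour and printed value) of Timp1, Timp2, Timp3 and the 8 matrix metalloproteinases on the panels (rows) in 6 comparisons (columns), from edgeR with n = 9 mice a group; a star marks an adjusted p under 0.05. Mmp9 has the lowest value with BA against control, -2.26, beside -0.92 for Timp1, and the starred Timp2 values, between -0.25 and 0.35, are not called under reference-gene scaling.

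The ratios of inhibitor to Mmp9 counts were higher in both groups given BA than in control. The log2 ratio of Timp1 to Mmp9 ranged from -0.51 to 0.43 in control (median 0.005) and from 0.78 to 2.05 in BA tumours (median 1.44), without overlap. It ranged from 0.33 to 1.25 in RT tumours (median 0.91) and from 0.67 to 2.92 in BA+RT tumours (median 1.73). Against control it was higher by 1.38 in BA and by 1.82 in BA+RT (both adjusted exact permutation p = 0.000219), and by 0.85 in RT (adjusted exact permutation p = 0.000961). The ratio of Timp2 to Mmp9 was higher by 2.46 in BA and by 1.77 in BA+RT than in control (both adjusted exact permutation p = 0.000219), and in RT it differed from control by 0.06 (adjusted exact permutation p = 0.801). The ratio of Timp3 to Mmp9 was higher by 1.57 in BA (adjusted exact permutation p = 0.000219), by 0.78 in RT (adjusted exact permutation p = 0.00501) and by 1.64 in BA+RT (adjusted exact permutation p = 0.000872). Timp1 and Timp3 transcripts thus fell less than those of Mmp9 with BA alone.

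Among the 7 enzymes on panel 2, Timp1 with BA gained on Mmp9 and lost against 3, namely Mmp8 (log2 ratio -1.44), Mmp14 (-0.68) and Mmp2 (-0.49). The adjusted exact permutation p was 0.000219, 0.0025 and 0.0131 for these 3. Mmp8 is the collagenase of neutrophils. With radiation Timp1 gained on 5 of 7 enzymes and lost against none, led by Mmp1a (log2 ratio 2.23, adjusted exact permutation p = 0.000219) and Mmp3 (1.03, adjusted exact permutation p = 0.00234). Timp2 with BA gained on 5 of 7 and lost against none, among them its partner Mmp14 by 0.40 (adjusted exact permutation p = 0.000219) and Mmp2 by 0.59 (adjusted exact permutation p = 0.0436). With radiation the ratio of Timp2 to Mmp14 was near that in control (0.03, adjusted exact permutation p = 0.735), while Timp2 gained 1.44 on Mmp1a (adjusted exact permutation p = 0.000961) and lost 0.69 against Mmp2 (adjusted exact permutation p = 0.0324). Timp3 gained on 4 of 7 enzymes with radiation and lost against none. With BA it gained on Mmp9 and lost against Mmp8 (log2 ratio -1.25, adjusted exact permutation p = 0.00144), and the other 5 ratios were not called. As these ratios rest on the same inhibitor counts, they are not independent of each other.

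Other genes around the inhibitors were counted from lists of the pathway. The activators of plasminogen, whose product plasmin activates several metalloproteinases, are Plau, the urokinase, and Plat, the tissue-type activator. With BA Plau fell (log2 -0.69) under each of 4 scalings, and Plat fell (log2 -0.23) under TMM, reference-gene and total-count scaling but was not called under RLE. With radiation Plat rose (log2 0.26), and Plau was not called (log2 -0.17, adjusted p = 0.102 by edgeR). Among 6 cytokines known to induce Timp1, Il1a (log2 -1.05) and Tgfb2 (log2 -1.15) fell with BA and the other 4 were not called. In that comparison 27% of all genes were called. With radiation, where 41.6% of all genes were called, Tnf alone of the 6 cytokines was called, and it rose (log2 1.20). When radiation was added to BA, where 53.5% of all genes were called, 4 of the 6 rose, Tgfb2 (log2 0.66), Tnf (log2 0.78), Il6 (log2 0.82) and Il1a (log2 0.48), of which Il6 lost its call without control mouse 6 and BA+RT mouse 45. Tgfb1 fell under TMM (log2 -0.23) but was not called with the reference genes.

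Beside the counts in the lists that follow, 27% of all genes were called with BA and 41.6% with radiation under TMM. Of 7 genes of the AP-1, Stat3, NF-kB and C/EBP groups, Nfkbia encodes an inhibitor of NF-kB and the others transcription factors. Cebpb (log2 0.52) and Jun (log2 0.26) rose with BA under TMM, and Cebpb alone with the reference genes. None of the 7 was called with radiation under TMM by edgeR, although Nfkb1 had an unadjusted p of 0.0217. With radiation 3 rose with the reference genes, Nfkb1 fell under RLE, and Fos and Nfkbia rose without the 2 mice highest in Myod1. Of 8 collagen and matrix genes 4 fell with BA (Col1a2, Ctgf, Thbs1 and Thbs2) and Fn1 rose (log2 0.29). With radiation 2 of the 8 were called, Ctgf (log2 0.40) and Thbs2 (log2 0.31), which rose. With BA, Thbs2 changed by -0.74 and Thbs1 by -0.54 on the log2 scale. Of 5 genes for surface proteins that bind TIMPs, Cd82, Itgb1 and Kdr fell with BA under each of 4 scalings. With radiation Cd74, a receptor that binds TIMP-1, fell (log2 -2.03), as did Itgb1 and Cd82 under TMM, and Cd74 alone fell with the reference genes.

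Markers of the cells that can make these inhibitors also differed between groups. Of 9 fibroblast and pericyte markers 4 were on the panels (Fap, Pdgfrb, Acta2 and Cspg4). All 4 fell with BA and with BA+RT against control under each of 4 scalings. In these comparisons 27% and 47.6% of all genes were called under TMM. Their summed level ranged from 1459 to 2410 CPM in control, 735 to 1231 in BA, 873 to 1683 in RT and 754 to 1324 in BA+RT. The sum was thus lower in BA and BA+RT than in control, as Timp1 and Timp3 were in BA, while in BA+RT neither inhibitor was called against control. With radiation alone 2 of the 4 markers fell under TMM and 1 with the reference genes, whereas Timp1 and Timp3 rose. There 41.6% of all genes were called under TMM. The 2 epithelial tumour markers measured of 9, Epcam and Muc1, summed to 9416 to 14500 CPM in control, 7823 to 10720 in BA, 5600 to 9443 in RT and 4391 to 8638 in BA+RT. Nearly all of that sum was Epcam, the marker that defines epithelial cells. Epcam fell with radiation (log2 -0.81) while Muc1 rose (log2 2.32), and both fell with BA (log2 -0.30 and -1.0).

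The 6 macrophage markers on the panels summed to 3521 to 4360 CPM in control, 4007 to 4826 in BA, 3634 to 5313 in RT and 3947 to 4768 in BA+RT, and they did not move as one. With BA Csf1r, Itgam and Msr1 rose and Adgre1 fell, and with radiation Adgre1, Cd68, Itgam and Msr1 rose and Csf1r fell, under each of 4 scalings. Beside these calls and those below, 27% of all genes were called with BA and 41.6% with radiation under TMM. In BA+RT vs control 47.6% of all genes were called. Of 3 endothelial markers tested Cd34 and Kdr fell with BA and with BA+RT against control, under each of 4 scalings, and with radiation Eng rose under each while Cd34 fell under TMM but was not called with the reference genes. The endothelial sum ranged from 2228 to 3119 CPM in control, 2059 to 2707 in BA, 2483 to 3485 in RT and 2018 to 2771 in BA+RT. Of 6 neutrophil markers on the panels 5 were tested, as Mpo did not pass the filter on low counts. Fpr1 and Fpr2 rose with BA and Fpr1 rose with radiation under TMM. With the reference genes Cxcr2 also fell with BA and Fpr2 also rose with radiation. In BA+RT vs control 2 of the 5 rose and 3 fell under TMM. The sum of the 6 ranged from 1835 to 4765 CPM in control, 1701 to 6546 in BA, 1379 to 5197 in RT and 1243 to 3750 in BA+RT, and Mpo was at 0 in some mice. Of 6 T cell markers Cd2 and Cd3g rose with BA, and Cd2 fell with radiation (under RLE Cd3d also). All 6 markers were higher in BA than in RT, where 53.8% of all genes were called. Their sum ranged from 26.4 to 153.6 CPM in control, 70.2 to 278.6 in BA, 8.85 to 125.6 in RT and 22.4 to 98.9 in BA+RT, and Cd8a was at 0 in some mice. In these sums each gene's CPM is relative to its own panel. The part of any of these cells in the inhibitor levels was not tested.

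Within groups, Timp1 and Timp3 varied together from mouse to mouse, and Timp2 varied against both. Deviations of log2 CPM from the group mean over 36 mice gave a Pearson r of 0.68 between Timp1 and Timp3 (Spearman's rho 0.53, adjusted permutation p = 0.000678 and 0.0071). Between Timp1 and Timp2 r was -0.68 (rho -0.59, adjusted permutation p = 0.000494 and 0.00159), and between Timp2 and Timp3 it was -0.77 (rho -0.66, adjusted permutation p = 0.000391 and 0.000691). Mice above their group in Timp1 thus tended to be above it in Timp3 and below it in Timp2. For each pair, adjustment ran over the genes set against the first inhibitor named. Over those set against the other, the adjusted permutation p was at most 0.0017 for r and 0.0216 for rho. Without the 2 mice farthest from the median of Timp1, BA+RT mouse 45 and control mouse 5, r was 0.56 with Timp3 and -0.57 with Timp2. Without RT mouse 25 and BA+RT mouse 45, r between Timp2 and Timp3 was -0.69. Group by group, r between Timp1 and Timp3 was 0.59 in control, 0.20 in BA, 0.77 in RT and 0.81 in BA+RT. These transcripts share a library, its scaling and its depth. Many genes followed each inhibitor in this way, 48.3% of 1037 genes for Timp1, 38.6% for Timp2 and 36.6% for Timp3, so that passing this test does not set a gene apart.

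**Figure D5:**
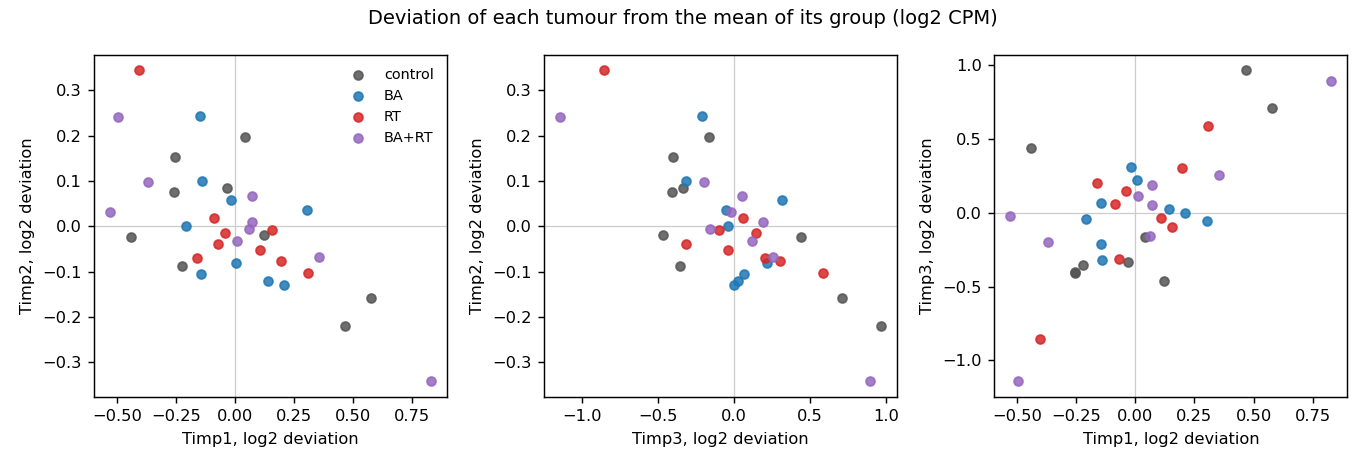
Deviation of each of the 36 tumours from its group mean, in log2 CPM, for Timp2 against Timp1, Timp2 against Timp3 and Timp3 against Timp1; each point is 1 mouse, coloured by group. Timp3 rises with Timp1 (r = 0.68), and Timp2 falls with Timp1 (r = -0.68) and with Timp3 (r = -0.77).

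The genes nearest to each inhibitor differed. For Timp1 they included Layn, a hyaluronan receptor (r = 0.84, rho 0.79), the small GTPase gene Rrad (r = 0.83, rho 0.84), Il6 (r = 0.82, rho 0.68) and Il33 (r = 0.80, rho 0.79). Layn, Rrad, Il6 and Il33 were read on panel 1, a separate library of the same RNA. The lowest values for Timp1 were those of Cdkn1b, a cell cycle inhibitor (r = -0.82, rho -0.83), and Ltbp1, which binds latent TGF-β (r = -0.82, rho -0.80). Timp2 was followed by Ctnnb1, which encodes β-catenin (r = 0.84, rho 0.80), Ltbp1 (r = 0.78, rho 0.71), the fibronectin gene Fn1 (r = 0.77, rho 0.75), the clotting factor gene F13a1 (r = 0.77, rho 0.75) and Sox4 (r = 0.77, rho 0.74), and it ran against Ncam1 (r = -0.78, rho -0.69) and Timp3. The adjusted permutation p of r was 0.000176 for each gene named with Timp1 and 0.000391 for each named with Timp2, and that of rho was at most 0.000331 and 0.000691. Without the 2 farthest mice, r was 0.78 for Layn with Timp1 and 0.79 for Ctnnb1 with Timp2. With scaling to total counts, r of Fn1 with Timp2 moved to 0.625.

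Timp3 was followed most closely by Myod1 (r = 0.77, rho 0.66), Ppfibp2 (r = 0.75, rho 0.69), Pdlim4 (r = 0.75, rho 0.59), the muscle membrane repair gene Dysf (r = 0.74, rho 0.62) and Amhr2 (r = 0.73, rho 0.62). Their adjusted permutation p-values were 0.000741 to 0.000864 for r and 0.00553 to 0.0141 for rho, and Timp2 (r = -0.77) and 4632428N05Rik (r = -0.74) stood at the other end. Myod1 was the single muscle marker of 10 listed that the panels held, and it ranged from 7.76 to 169.9 CPM in control, 16.6 to 101.5 in BA, 14.2 to 121.9 in RT and 14.9 to 393.4 in BA+RT. Myod1 rose in BA+RT against control (log2 1.58) and against BA (log2 1.32), and it was not called in BA vs control (log2 0.26) or RT vs control (log2 0.49). The rise against BA lost its call without control mouse 6 and BA+RT mouse 45. Without BA+RT mouse 37 and control mouse 6, the mice farthest from the Timp3 median, r with Myod1 was 0.67, with BA+RT mouse 45 kept. Group by group, r of Timp3 with Myod1 was 0.84 in control, 0.69 in BA, 0.47 in RT and 0.92 in BA+RT. Timp3 kept its calls without control mouse 6 and BA+RT mouse 45 in all 5 comparisons where it had one, with log2 values of -0.64 in BA vs control, 0.65 in RT vs control, -0.86 in BA+RT vs RT, 0.43 in BA+RT vs BA and -1.29 in BA vs RT.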

How the data were processed

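The authors' deposited table held whole-number counts per gene amplicon, not normalized, on 992 genes of panel 1 and 286 of panel 2 in 36 mice (72 libraries). The deposited second table held log2-scale rlog values, made with DESeq2 per the submitters' processing notes, and was used in 1 alternative. Aligner, counter, and whether reads or molecular barcodes were counted are not stated in the labels used here. Positions are headed GRCh38, but 1277 of 1278 amplicons lay inside the named mouse gene on GRCm38. Genomic DNA control rows (7 and 12 counts) were left out. Each panel was fitted alone in edgeR 4.0.16 (R 4.3.3, filterByExpr, TMM, robust quasi-likelihood F test, 4 groups of 9, no covariate), with Benjamini-Hochberg adjustment over 1038 genes and calls below 0.05. A gene on both panels came from that with its larger total. DESeq2 1.42.0, limma 3.58.1, other scalings, no filter and leaving out each mouse were tried. Ratios are log2 of counts + 0.5. Likeness used log2 CPM (prior count 2) and 100000 permutations within groups. The fits were tested on simulated data. A gene that the naming rule gives is not reported here. Motifs were searched before the RefSeq start site only. Members, gene lists, alternatives and named genes (the 3 members, and in each list up to 4 genes of smallest p, other list genes being named after their values were seen) were chosen with earlier results of these data known.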

Additional observations from a re-analysis of the deposited data

Results flagged for a closer look

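Timp2 in RT mouse 25 stood at 14682 CPM, far above the other 8 RT mice, of which the highest was at 11701. The log2 ratio of Timp1 to Timp2 in the same mouse, -0.78, was far below the rest of the RT group, of which the lowest was at -0.14. The log2 ratio of Timp3 to Mmp9 was -2.99 in BA+RT mouse 37, where the next lowest BA+RT mouse was at -1.50. These 3 of 36 groups of values examined held a mouse whose gap to the nearest of the others was large for the range of its group. Chance alone gives such a gap in about 1 in 20 groups, and the groups share mice and genes.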

How the results depend on the processing

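Timp1 and Timp3 kept direction and call in each of their 5 called comparisons under RLE, reference-gene and total-count scaling, DESeq2, limma on rlog values, no filter and non-robust fitting. Taking genes on both panels from that with the smaller total could not change their fold changes, as both were read on panel 2 only. Timp3 in RT vs control was 0.49 and not called in a fit of those groups alone. Timp2 lost its call with reference genes in BA vs control (0.0757), RT vs control (-0.00799), BA+RT vs BA (-0.0969) and BA vs RT (0.0837), and turned in BA+RT vs RT (-0.0133). It also lost it with total counts in BA vs control (0.17) and RT vs control (-0.16), and without a filter (0.18) or the 2 mice highest in Myod1 (0.15) in BA vs control. The alternative without those mice was chosen after seeing the data, and it moved genes called in BA+RT vs RT from 112 to 172.

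Uncalled values near 0 turned sign. Timp1 in BA+RT vs control was -0.000469 with those groups alone, -0.00242 with limma and -0.0735 without the 2 mice, and the Timp3 interaction was -0.0411 with limma and -0.22 without the 2 mice. Leaving out each mouse gave -0.12 to 0.0865 for Timp1 in BA+RT vs control, 0.15 to 0.21 and -0.23 to -0.14 for Timp2 in BA vs control and RT vs control, 0.41 to 0.65 for Timp3 in RT vs control, 0.44 to 0.68 in BA+RT vs BA and -0.0837 to 0.18 in the interaction. Ratios that turned sign were Timp1 to Timp2 (-0.0908 to 0.15) and Timp2 to Timp3 (-0.0484 to 0.28) in BA+RT vs control, Timp1 to Timp3 (-0.0365 to 0.15) and Timp2 to Mmp9 (-0.0688 to 0.16) in RT vs control, and Timp3 to Mmp9 in BA+RT vs BA (-0.0701 to 0.30). The cause was not tested. Reference-gene scaling moved the higher and lower calls from 243 and 251 to 387 and 157 in BA+RT vs control, from 38 and 74 to 19 and 96 in BA+RT vs RT, from 281 and 274 to 472 and 147 in BA+RT vs BA and from 265 and 293 to 118 and 536 in BA vs RT, and DESeq2 moved those of the interaction from 35 and 51 to 58 and 53.

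No paired analysis was possible because the mice of the 4 groups share no numbers. Apart from the marker sums, which add the CPM of different amplicons, levels of different genes were not compared, since amplicon efficiency is unknown. The sums are weighted by these unknown efficiencies.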

Other observations

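Timp4, the remaining member of the family, is known from heart and muscle and was also read on panel 2, through an amplicon in a coding exon. It had 0 to 50 counts per library and was not called in any comparison by edgeR. Its level ranged from 0 to 133.5 CPM in control (median 5.38), 0 to 26.9 in BA (median 10.6), 0 to 46.8 in RT (median 8.15) and 1.49 to 81.6 in BA+RT (median 11.5). The highest values were those of control mouse 6 and BA+RT mouse 45, the same mice that were highest in Myod1. Their Timp3 levels, 2029 and 1691 CPM, were also the highest of their groups, and their Timp2 levels, 11163 and 9788 CPM, the lowest. The smallest adjusted p of Timp4 in the 6 pairwise comparisons was 0.426, and the smallest unadjusted p was 0.341.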
